A study of Homo sapiens with 16 samples.

Results

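hsa-miR-103a-3p and hsa-miR-107 are paralogous microRNAs that lie inside the pantothenate kinase genes, and their levels were followed here through extracellular vesicles (EVs) and parental cells of 2 human cancer cell lines. They are 2 of the 915 entries in the miRNA table, of which 497 carry mature names, and were taken by name. A microRNA guides a silencing complex to messenger RNAs, mostly through pairing of its seed, bases 2 to 8, and microRNAs with the same seed share most predicted targets. miR-103 and miR-107 are known for regulation of insulin sensitivity in mouse, for targeting of Dicer in breast cancer cells, and miR-103a-3p is often used as a reference in qPCR. Their host genes encode the enzymes that open coenzyme A synthesis.

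The libraries hold small RNA of PC3, derived from prostate cancer, and MDA-MB-231, derived from breast cancer, both labelled wild type, untreated and kept in DMEM with 5% FBS by the labels. The study's methods give a different serum content for MDA-MB-231. They also describe a period in serum-free medium for EV donor cells before that medium was collected. EVs were isolated from culture medium by next-gen ATPS (polyethylene glycol and dextran phases, with dextranase treatment before TRIzol), by ultracentrifugation (UC) or with the Qiagen exoRNeasy kit, and set against cells, giving 8 groups of 2 libraries. The UC libraries are titled VC in the labels, and this was taken to mean UC, the remaining method that the series names. Whether a group's 2 libraries stem from different cultures is not stated, so every p-value below measures only how far these libraries differ, which can be technical spread. Each library is bulk material, in which fewer vesicles or cells holding a miRNA and less of it in each cannot be told apart.

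The miRNA libraries held 153 to 97408 reads. The shallowest was MDA-MB-231 cells replicate 2 with 153, and differences of the pair whose means include it are given with and without it. Of 6 epithelial marker miRNAs, 3 were listed, with 28 reads in all over the 16 libraries, and hsa-miR-141-3p, hsa-miR-429 and hsa-miR-205-5p had no row. Thus the epithelial label of both lines was hardly visible in these tables. Of 5 blood cell markers only hsa-miR-486-5p was listed, with 48 reads in all, and the liver and muscle markers had no row.

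The mature sequences are shown first because the whole comparison of the paralogues rests on a single base. In these lines the seed is in capitals (RefSeq, GRCh38.p14).
hsa-miR-103a-3p: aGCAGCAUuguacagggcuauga
hsa-miR-107: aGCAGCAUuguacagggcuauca
Both are 23 bases long with the same seed, share their first 21 bases and differ by 1 substitution, G22C, counted from 1 at the 5′ end of hsa-miR-103a-3p. The differing base is in capitals here.
hsa-miR-103a-3p: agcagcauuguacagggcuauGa
hsa-miR-107: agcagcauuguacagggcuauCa
Reads of 18 to 35 bases were kept, so a read of only the shared bases fits both names. How such reads were divided is not known from the deposited values, and both entries are therefore uncertain as separate measurements.

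The hairpins show that 3 genes give these 2 products, with the mature part in capitals.
MIR103A1: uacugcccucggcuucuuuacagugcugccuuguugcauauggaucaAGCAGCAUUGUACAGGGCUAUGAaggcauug
MIR103A2: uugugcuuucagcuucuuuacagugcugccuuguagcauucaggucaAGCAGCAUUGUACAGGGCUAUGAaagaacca
MIR107: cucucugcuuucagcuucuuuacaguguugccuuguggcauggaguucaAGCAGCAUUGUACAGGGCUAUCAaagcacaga
MIR103A1 lies at chr5:168560896-168560973 on the minus strand in an intron of PANK3 (hg38, GENCODE annotation). MIR103A2 lies at chr20:3917494-3917571 on the plus strand in an intron of PANK2, and MIR107 at chr10:89592747-89592827 on the minus strand in an intron of PANK1. Each is on the strand of its host gene. The reads of hsa-miR-103a-3p cannot be assigned to MIR103A1 or MIR103A2, since the mature part is the same in both.

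Both miRNAs had lower levels in every EV library than in the cells of the same line, and lower levels in PC3 EVs than in MDA-MB-231 EVs of the same method. The deposited unit is named TPM and is here a share per 1000000 miRNA reads without a length term. hsa-miR-103a-3p had 1790 and 2168 TPM in PC3 next-gen ATPS EVs, 3627 and 4960 in PC3 UC EVs and 1581 and 797 in PC3 exoRNeasy EVs, against 13625 and 13777 in PC3 cells. All 6 PC3 EV libraries were below both cell libraries. In MDA-MB-231 it had 6013 and 4737 TPM in next-gen ATPS EVs, 9179 and 6398 TPM with UC, 5526 and 3532 TPM with exoRNeasy, against 17061 and 19608 in cells. No EV library of MDA-MB-231 reached the cell libraries either. The share of all entries that separate in this way was not counted, here or for the separations of libraries below. Such a separation is therefore not shown to be particular to the pair.

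hsa-miR-107 ran closely beside hsa-miR-103a-3p. In PC3 it had 1591 and 1951 TPM in next-gen ATPS EVs, 3627 and 4340 TPM with UC, 1581 and 0 TPM with exoRNeasy, against 12812 and 12802 in cells. The library listed at 0, PC3 exoRNeasy EVs replicate 2, held 2508 miRNA reads, and a count of 0 allows up to 1470 TPM there (95% exact binomial interval, counting error only). In MDA-MB-231 it had 5782 and 3708 TPM in next-gen ATPS EVs, 8290 and 5800 TPM with UC, 5321 and 3532 TPM with exoRNeasy, against 15889 and 19608 in cells. Again no EV range overlapped the range of its cells.

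**Figure D1:**
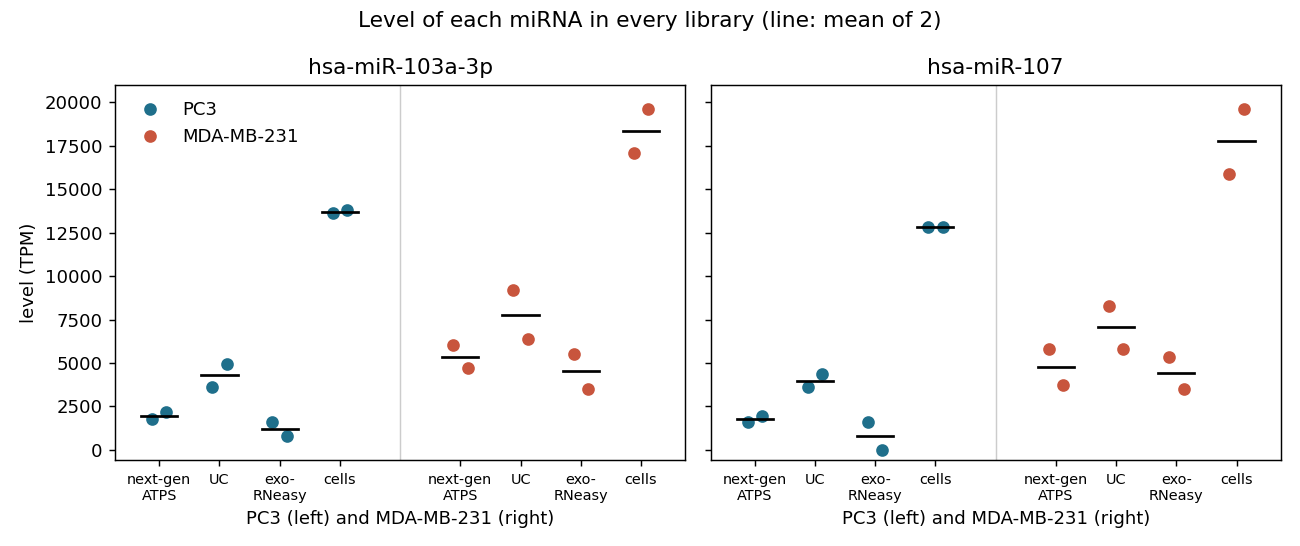
Level of hsa-miR-103a-3p (left panel) and hsa-miR-107 (right panel) in TPM on the y axis, by material and cell line on the x axis, with a point for each library and a line at the mean of 2. In both panels the cell libraries lie above every EV library of their line, and UC EVs have the highest mean among the EVs of each line.

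The order of the 8 groups was the same for both miRNAs. It ran from MDA-MB-231 cells over PC3 cells, MDA-MB-231 UC, next-gen ATPS and exoRNeasy EVs to PC3 UC, next-gen ATPS and exoRNeasy EVs. The mean of hsa-miR-103a-3p was 18334 ± 1801 TPM at the top and 1189 ± 554 at the bottom (SD, n = 2 each). Neighbouring groups had overlapping ranges at 2 places, between next-gen ATPS and exoRNeasy EVs of MDA-MB-231 and between exoRNeasy EVs of MDA-MB-231 and UC EVs of PC3. These places were the same for hsa-miR-107. Reads of the shared bases fit both names, so the sameness is not separate evidence.

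As a share of the level in cells, PC3 EVs held 14.4% (next-gen ATPS), 31.3% (UC) and 8.68% (exoRNeasy) of hsa-miR-103a-3p. In MDA-MB-231 the same shares were 29.3%, 42.5% and 24.7%. For hsa-miR-107 they were 13.8%, 31.1% and 6.17% in PC3 and 26.7%, 39.7% and 24.9% in MDA-MB-231. Set against MDA-MB-231 cells replicate 1 alone, hsa-miR-103a-3p in MDA-MB-231 EVs came to 31.5%, 45.7% and 26.5%, and hsa-miR-107 to 29.9%, 44.3% and 27.9%.

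Differences between groups were tested with limma on log2(TPM + 100) in a single model over 16 libraries and 566 entries, with Benjamini-Hochberg adjustment within each comparison and a threshold of 0.05. The fold changes are on that scale, which understates the change of low entries. The pseudocount bears on several calls below, because 1 read was worth 10.3 to 6536 TPM.

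Over both lines, hsa-miR-103a-3p fell in EVs by 2.15 on the log2 scale (SE 0.27, adjusted p = 0.000106, limma). hsa-miR-107 fell by 2.45 (SE 0.53, adjusted p = 0.0079). Of the entries tested, 7.07% were called lower in EVs. The hsa-miR-103a-3p call was kept under the 11 alternatives and without each library in turn. The call of hsa-miR-107 was lost with a pseudocount of 1 (adjusted p = 0.160) or 10 (adjusted p = 0.0542). Without MDA-MB-231 cells replicate 2 the differences were -2.10 (adjusted p = 0.000403) and -2.37 (adjusted p = 0.0277).

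Within PC3, hsa-miR-103a-3p fell in EVs by 2.63 (SE 0.38, adjusted p = 0.000546, limma) and hsa-miR-107 by 3.14 (SE 0.75, adjusted p = 0.0166), where 7.77% of entries were called lower. The hsa-miR-107 call was lost at a pseudocount of 1 (adjusted p = 0.171) or 10 (adjusted p = 0.0807), and without PC3 cells replicate 1 (adjusted p = 0.150) or replicate 2 (adjusted p = 0.140).

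Within MDA-MB-231, hsa-miR-103a-3p fell in EVs by 1.68 (SE 0.38, adjusted p = 0.0149, limma), where 6.18% of entries were called in either direction. For hsa-miR-107 the difference was -1.75 (SE 0.75, adjusted p = 0.295), which did not pass. The hsa-miR-103a-3p call was lost at a pseudocount of 1 (adjusted p = 0.134) or 10 (adjusted p = 0.0506), with no filter on low values (adjusted p = 0.0512), with TMM scaling (adjusted p = 0.165) and over mature names only (-1.09, adjusted p = 0.155). The hsa-miR-107 difference passed without PC3 exoRNeasy EVs replicate 1 or replicate 2. Either fit leaves 1 library in that group, so its spread of 1581 against 0 TPM no longer enters the shared error. Without MDA-MB-231 cells replicate 2 the differences were -1.58 for hsa-miR-103a-3p (adjusted p = 0.0430) and -1.60 for hsa-miR-107 (adjusted p = 0.546).

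The last of these alternatives changes the denominator. Mature names took 36.2% to 60.5% of the miRNA reads in MDA-MB-231 EVs, against 67.3% and 74.4% in MDA-MB-231 cells. In PC3 they took 70.7% to 81.6% in EVs, against 54.3% and 55.1% in cells. Per 1000000 mature reads, hsa-miR-103a-3p stood at 5838 to 20597 in MDA-MB-231 EVs, against 22931 and 29126 in MDA-MB-231 cells. In PC3 the same quantity was 995 to 6873 in EVs, against 25092 and 24992 in cells. Hence on this scale too no EV library overlapped its cells, while the gap in MDA-MB-231 was narrower.

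The difference between EVs and cells was -0.96 for hsa-miR-103a-3p when PC3 was set against MDA-MB-231 (SE 0.53, adjusted p = 0.595, limma), and -1.40 for hsa-miR-107 (SE 1.06, adjusted p = 0.726). Neither passed, and the 95% intervals ran from -2.11 to 0.19 and from -3.69 to 0.90. Without MDA-MB-231 cells replicate 2 the values were -1.06 (adjusted p = 0.582) and -1.55 (adjusted p = 0.886). Of all entries, 1.24% were called in either direction.

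PC3 EVs held less of both miRNAs than MDA-MB-231 EVs. hsa-miR-103a-3p fell by 1.37 in PC3 EVs (SE 0.27, adjusted p = 0.00404, limma) and hsa-miR-107 by 1.86 (SE 0.53, adjusted p = 0.0409), against 7.60% of entries called lower. Within each method, both PC3 EV libraries were below both MDA-MB-231 EV libraries for both miRNAs. The hsa-miR-103a-3p call was kept under the 11 alternatives and without each library in turn. For hsa-miR-107 the call was lost without any one of 13 of the 16 libraries (adjusted p up to 0.106), at a pseudocount of 1 (adjusted p = 0.182) or 10 (adjusted p = 0.0948), with no filter (adjusted p = 0.0833) and with TMM scaling (adjusted p = 0.0596). It fell by 1.18 without PC3 exoRNeasy EVs replicate 2, a fit that leaves 1 library in that group.

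Between the cells themselves no difference passed. hsa-miR-103a-3p in PC3 cells minus MDA-MB-231 cells was -0.41 (SE 0.46, 95% interval -1.41 to 0.58, adjusted p = 0.953, limma) and hsa-miR-107 -0.46 (SE 0.92, 95% interval -2.45 to 1.53, adjusted p = 1). Without MDA-MB-231 cells replicate 2 the values were -0.31 and -0.31 (adjusted p = 1 each). The sign turned with TMM scaling (0.34 and 0.30). In this comparison 4.77% of entries were called in either direction. At 153 reads, the 3 reads of hsa-miR-103a-3p in MDA-MB-231 cells replicate 2 allow 4062 to 56231 TPM, so a moderate difference was not detectable there.

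Among the isolation methods, mean levels were highest in UC EVs. hsa-miR-103a-3p was higher in UC than in exoRNeasy EVs by 1.30 (SE 0.33, adjusted p = 0.0282, limma), where 2.83% of entries were called higher, and hsa-miR-107 differed by 1.99 (SE 0.65, adjusted p = 0.0805). The hsa-miR-103a-3p call was lost at a pseudocount of 1 (adjusted p = 0.106) or 10 (adjusted p = 0.0504), with no filter (adjusted p = 0.0867), and without PC3 UC EVs replicate 2 (adjusted p = 0.0674), PC3 cells replicate 1 (adjusted p = 0.0722) or replicate 2 (adjusted p = 0.0646), MDA-MB-231 UC EVs replicate 1 (adjusted p = 0.0619) or MDA-MB-231 exoRNeasy EVs replicate 2 (adjusted p = 0.0648). The hsa-miR-107 difference rested on the PC3 exoRNeasy libraries, since it was 3.01 without replicate 1 and 0.97 without replicate 2. Either fit leaves 1 library in that group.

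Next-gen ATPS EVs lay between the other methods by their means in either line. Against UC EVs, hsa-miR-103a-3p differed by -0.79 (SE 0.33, adjusted p = 0.477, limma) and hsa-miR-107 by -0.85 (SE 0.65, adjusted p = 0.739), with 0.177% of entries called. All 4 next-gen ATPS libraries were below the UC libraries of their own line for both miRNAs, without a count of the other entries with that order. On recovered reads of 15 libraries, edgeR called both lower in next-gen ATPS EVs (-1.22 and -1.25, adjusted p = 0.0274 each), where it called 1.77% of 566 entries lower. DESeq2 also called both, with 25.0% of 116 entries called lower. Thus the call for this pair of methods depends on the test. Against exoRNeasy EVs, hsa-miR-103a-3p differed by 0.51 (SE 0.33, adjusted p = 0.520, limma) and hsa-miR-107 by 1.14 (SE 0.65, adjusted p = 0.520), with 4.42% of entries called. The hsa-miR-107 difference was 2.16 without PC3 exoRNeasy EVs replicate 1 and 0.12 without replicate 2. Here too either fit leaves 1 library in that group. Comparisons among methods share their libraries and are not separate evidence.

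**Figure D2:**
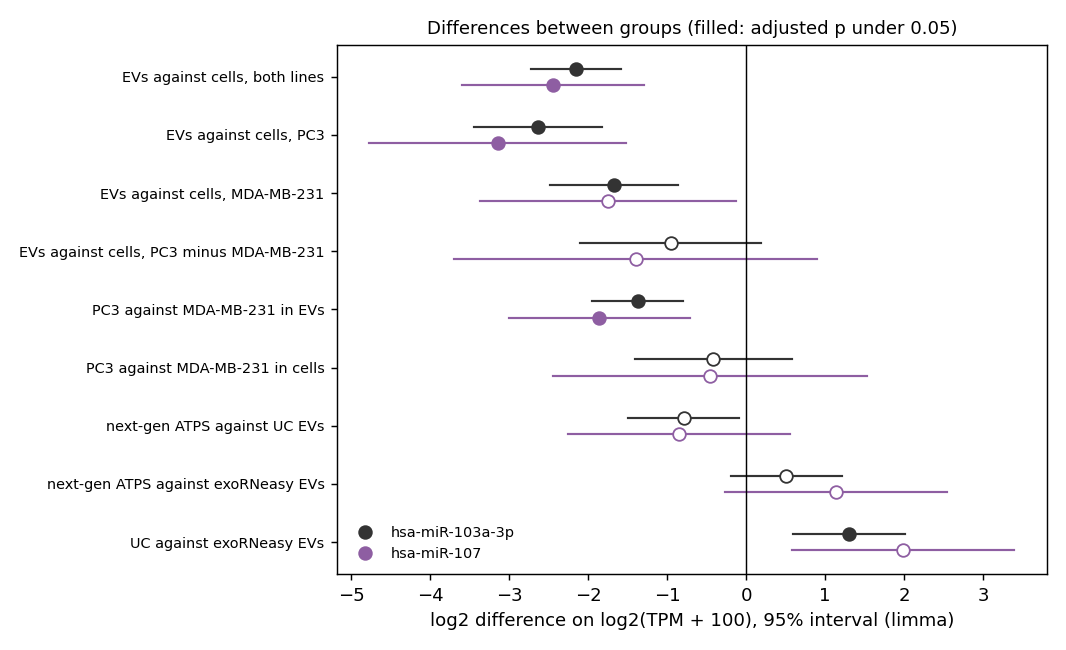
log2 differences of hsa-miR-103a-3p (black) and hsa-miR-107 (purple) on the log2(TPM + 100) scale, x axis, for the 9 comparisons, y axis, each with its 95% interval from limma. Filled points passed an adjusted p of 0.05. The intervals of hsa-miR-107 are wider throughout, and neither miRNA passed between the cells of the lines.

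The reads of the paralogues were close to each other in most libraries. Over 16 libraries there were 3229 reads of hsa-miR-103a-3p and 2995 of hsa-miR-107, a ratio of 0.928. hsa-miR-103a-3p had more reads in 12 libraries, the counts were equal in 4, and hsa-miR-107 was ahead in 0. The deepest library, PC3 cells replicate 2, held 1247 reads of hsa-miR-107 beside 1342 of hsa-miR-103a-3p. The lowest ratios were 0 in PC3 exoRNeasy EVs replicate 2, with 0 beside 2 reads, and 0.783 in MDA-MB-231 next-gen ATPS EVs replicate 2, with 18 beside 23.

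**Figure D3:**
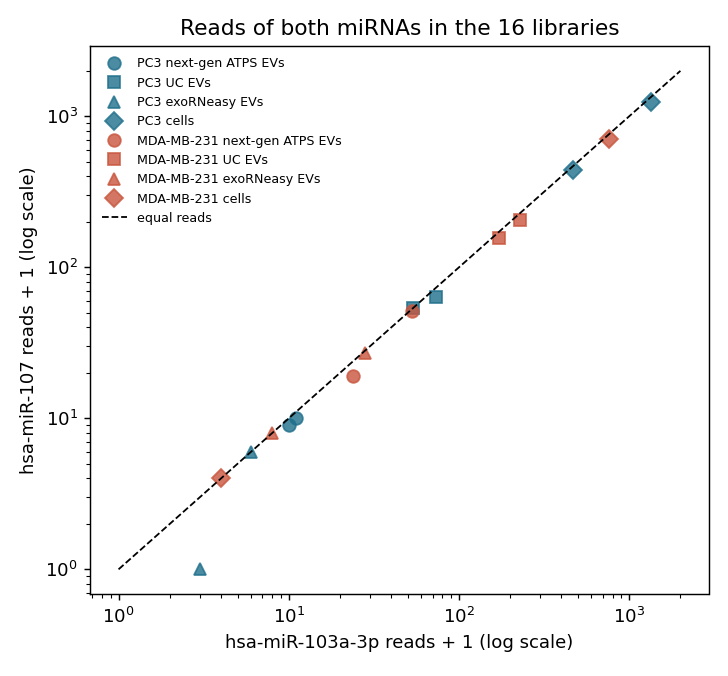
Reads of hsa-miR-107 (y axis) against reads of hsa-miR-103a-3p (x axis), each plus 1 on a log scale, with a point for each of the 16 libraries and a dashed line of equal reads. The points follow the line from 3 reads of each to 1342 and 1247 reads, and the library with 2 and 0 reads lies apart.

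The share of hsa-miR-107 in the summed reads of the pair was taken in the 14 libraries with at least 10 such reads, which left out PC3 exoRNeasy EVs replicate 2 and MDA-MB-231 cells replicate 2. In PC3 the share was 47.1% and 47.4% in next-gen ATPS EVs, 50% and 46.7% in UC EVs and 50% in the exoRNeasy library, against 48.5% and 48.2% in cells. In MDA-MB-231 it was 49.0% and 43.9% in next-gen ATPS EVs, 47.5% and 47.5% with UC, 49.1% and 50% with exoRNeasy, against 48.2% in cells. All 4 next-gen ATPS shares were below the 3 exoRNeasy shares, while the EV shares as a whole ran on both sides of those of cells. The lowest share rested on 41 reads (95% exact binomial interval 28.5% to 60.3%, counting error only).

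None of 5 exact permutation tests of the share, two-sided and stratified by line or material, passed after adjustment. EVs minus cells gave -0.24 percentage points (11 and 3 libraries, exact p = 0.816, adjusted p = 0.816). PC3 minus MDA-MB-231 gave 0.54 points (7 libraries each, exact p = 0.466, adjusted p = 0.625). Next-gen ATPS minus UC EVs gave -1.08 points (4 libraries each, exact p = 0.5, adjusted p = 0.625), and UC minus exoRNeasy EVs gave -1.85 points (4 and 3 libraries, exact p = 0.278, adjusted p = 0.625). Next-gen ATPS minus exoRNeasy EVs gave -2.93 points (4 and 3 libraries, exact p = 0.0556, adjusted p = 0.278), and 0.0556 is the smallest p this design allows. The 3 comparisons of methods could not reach 0.05. Reads of the shared bases fit both names, and how they were divided is not known. A test that did not pass therefore does not show that the ratio of the paralogues was the same.

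The share varied less between libraries than separate counts would. Its SD over 14 libraries was 1.63 points, while binomial counting alone at these depths gives 8.02 points if each read belongs to only one of the names. The ratio of the observed to the binomial dispersion was 0.0634. Whether single reads were counted under both names was not tested, since the tables do not hold the reads.

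In the miR-23 and miR-27 pairs of the same table the share varied more than binomial counting gives. They are printed with the bases that differ in capitals, because their difference also lies near the 3′ end.
hsa-miR-23a-3p: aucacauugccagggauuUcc
hsa-miR-23b-3p: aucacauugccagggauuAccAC
hsa-miR-27a-3p: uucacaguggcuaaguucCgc
hsa-miR-27b-3p: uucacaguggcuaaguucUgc
Each pair shares its first 18 bases and differs by 1 substitution, U19A for the miR-23 pair and C19U for the miR-27 pair, counted from the 5′ end. miR-103a-3p and miR-107 share their first 21 bases, so a read must reach further to tell that pair apart. The pairs are not matched in this respect. hsa-miR-23b-3p is also longer at its 3′ end, with 23 bases against 21 in hsa-miR-23a-3p. The share of hsa-miR-23b-3p in its pair was 0% to 20% in 7 PC3 libraries and 15.4% to 40.8% in 6 MDA-MB-231 libraries. That of hsa-miR-27b-3p was 0% to 10.8% in 6 PC3 libraries and 23.5% to 60.2% in 6 MDA-MB-231 libraries, without overlap. The ratio of observed to binomial dispersion was 8.05 for the miR-23 pair and 41.1 for the miR-27 pair, against 0.0634 for miR-103a-3p and miR-107. Each ratio is taken around the share pooled over both lines, so a difference between the lines enters it. For hsa-miR-27b-3p the pooled share was 3.39% in PC3 and 47.6% in MDA-MB-231. hsa-miR-19a-3p and hsa-miR-19b-3p reached 10 reads in only 3 libraries, with a ratio of 0.666, and hsa-miR-29c-3p had no row, so the miR-29 pair was not computed. These contrasts between pairs are descriptions with no test.

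**Figure D4:**
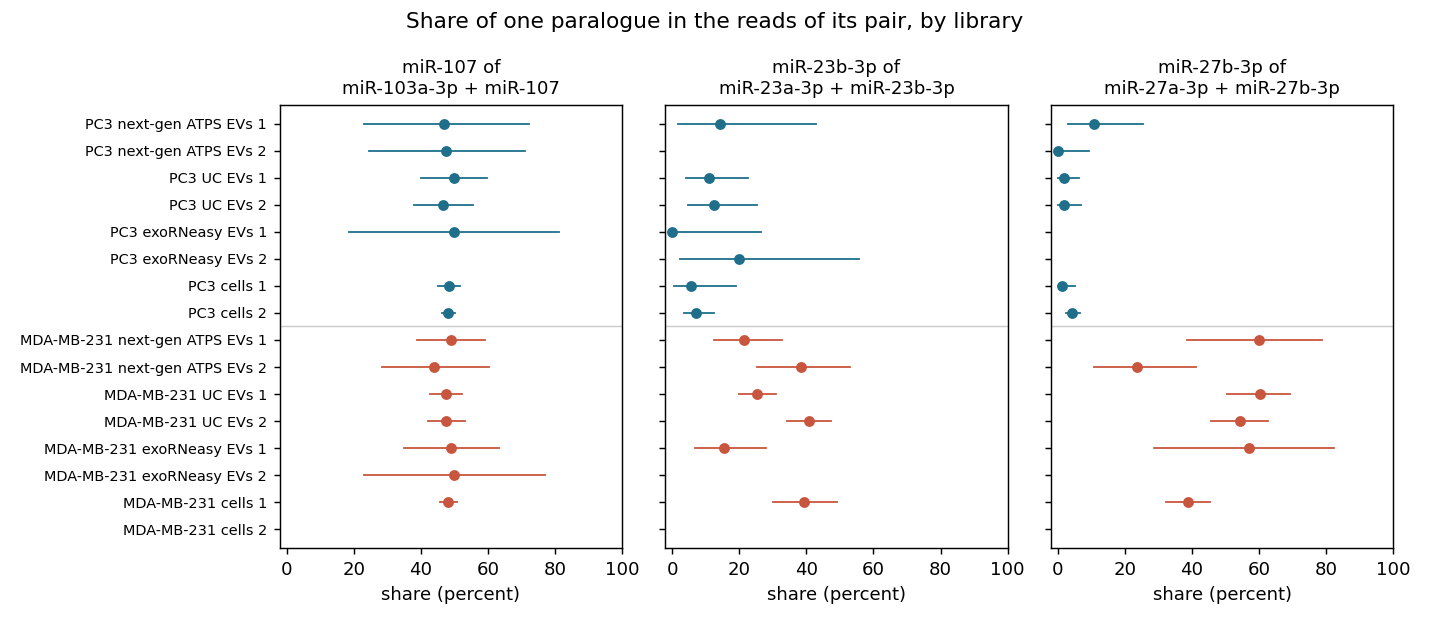
Share of the second paralogue in the reads of its pair (percent, x axis) by library (y axis), for miR-103a-3p and miR-107, miR-23a-3p and miR-23b-3p, and miR-27a-3p and miR-27b-3p, with 95% exact binomial intervals, in libraries with at least 10 reads of the pair. The miR-107 share stays between 43.9% and 50% in both lines, while the miR-27b-3p share is higher in all 6 MDA-MB-231 libraries than in the 6 PC3 libraries.

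The precursors and passenger strands of the loci had few reads. Of 8 other entries of these loci 3 were listed, with 35 reads in all: hsa-mir-103a-1 had 16, hsa-mir-103a-2 had 17 and hsa-miR-103a-2-5p had 2. hsa-mir-107 had no row. The hairpin entries passed no comparison, and in EVs against cells over both lines hsa-mir-103a-1 differed by 0.06 (SE 0.25, adjusted p = 0.960, limma) and hsa-mir-103a-2 by 0.17 (SE 0.27, adjusted p = 0.795).

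The pair belongs to a larger group with miR-15 and miR-16, whose members share the run agcagc near the 5′ end. The run starts at base 1 in miR-103a-3p and miR-107 and at base 2 in the others, which shifts the seed. These lines show that shift for the members with a row, with the seed in capitals.
hsa-miR-15a-5p: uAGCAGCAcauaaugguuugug
hsa-miR-16-5p: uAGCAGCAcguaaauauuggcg
hsa-miR-503-5p: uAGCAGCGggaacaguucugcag
Of the 8 other members 3 were listed, with 104 reads in all, far below the 3229 and 2995 reads of the pair. miR-15a and miR-16 are known as repressors of BCL2 and of cell cycle genes. hsa-miR-15a-5p had a single read, so it was not tested, and hsa-miR-16-5p had 33 and hsa-miR-503-5p 70.

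hsa-miR-16-5p passed 2 of 9 comparisons and hsa-miR-503-5p 1 of 9. hsa-miR-16-5p had at most 1 read in each of the 4 next-gen ATPS libraries, against 1 to 4 reads in the 4 exoRNeasy libraries, and fell by 2.07 in next-gen ATPS EVs (SE 0.49, adjusted p = 0.0299, limma), where 3.18% of entries were called lower. It also fell by 1.84 in UC against exoRNeasy EVs (SE 0.49, adjusted p = 0.0342), where 5.48% of entries were called lower, opposite in sign to the pair. hsa-miR-503-5p fell by 1.85 in PC3 against MDA-MB-231 EVs (SE 0.54, adjusted p = 0.0451), beside 7.60% of entries called lower. These calls rest on few reads.

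The mature entries whose profile was most like hsa-miR-103a-3p over 15 libraries were hsa-miR-107 (Pearson r = 0.93 on the log2 scale), hsa-miR-92a-3p (0.89), hsa-miR-30d-5p (0.79), hsa-miR-92b-3p (0.76) and hsa-miR-100-5p (0.76), of 72 entries ranked. For hsa-miR-107 they were hsa-miR-103a-3p (0.93), hsa-miR-100-5p (0.90), hsa-miR-30c-5p (0.84), hsa-miR-210-3p (0.81) and hsa-let-7a-5p (0.78). The 0 TPM of hsa-miR-107 in PC3 exoRNeasy EVs replicate 2 enters these correlations, and values without that library were not computed. hsa-let-7a-5p had a mean of only 11.2 reads in the 15 libraries. hsa-miR-92a-3p belongs to the miR-17-92 family of clusters, and hsa-miR-210-3p is known for its induction in hypoxia. The libraries share depth and a fixed total, and reads of the pair's shared bases fit both names, so these values describe the table. In EVs against cells over both lines, hsa-miR-30d-5p fell by 1.48 (SE 0.28, adjusted p = 0.00295, limma), and hsa-miR-92a-3p differed by -0.82 (SE 0.84, adjusted p = 0.636).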

How the data were processed

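Reads were trimmed by the authors at Q20 with a 4-base window and kept at 18 to 35 bases. The authors used STAR for alignment to hg38 and COMPSRA for annotation (versions not given in the sources used here). By the stated method, multimapping reads counted but unique ones weighed more, yet no fractional weights show in the values. The values deposited as TPM are CPM over the miRNA reads of a library, and 100% were whole multiples of 1 read within 0.1 read. Reads were recovered from them, and edgeR and DESeq2 ran on 15 libraries, without MDA-MB-231 cells replicate 2. The circRNA and snoRNA tables were not used.

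limma (3.58.1, trend and robust) was fitted to log2(TPM + 100) with 8 group means, over entries with at least 1 TPM in at least 2 libraries. The tests were written for TPM and kept for CPM. An earlier treatment of the same table used a pseudocount of 1, so both are given where they differ. The miR-107 share was tested with exact permutations. Alternatives were other pseudocounts, filters and scalings, a replicate block, edgeR (4.0.16), DESeq2 (1.42.0), each library left out, and the 2 libraries with under 10 reads of the pair left out together, the last chosen after seeing the data. Members and lists were chosen with earlier results of these data known. Named entries were the pair, its loci, its larger group with miR-15 and miR-16, 4 other paralogous pairs, and the 5 mature entries most like each member.

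This fit was tested on simulated data in 2 versions. With values divided by a fixed depth it made few false calls, but with values rescaled to a fixed total, as in the deposited table, false calls among unchanged entries were above the rate that the adjustment sets. Adjusted p-values can therefore be too small where a few abundant entries change.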

Additional observations from a re-analysis of the deposited data

How the results depend on the processing

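Of 586 alternative values over 23 results, 518 kept their direction and side of the threshold, 36 lost a call, 17 gained one and 15 changed sign, none of the 15 with a call. hsa-miR-103a-3p kept its calls for EVs against cells over both lines (adjusted p up to 0.00352, and up to 0.00168 without each library), in PC3 (up to 0.00509 and 0.0241) and for PC3 against MDA-MB-231 EVs (up to 0.0422 and 0.0174). Values here are log2 differences unless stated; causes were not tested.

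A pseudocount of 1 ended the calls of hsa-miR-107 in EVs against cells (-3.03 over both lines, -4.29 in PC3) and in PC3 against MDA-MB-231 EVs (-2.99), and of hsa-miR-103a-3p in MDA-MB-231 EVs against cells (-1.69) and UC against exoRNeasy EVs (1.36). At 10 the same 5 were lost (-2.75, -3.74, -2.43, -1.69 and 1.35). At 1000 hsa-miR-107 passed in MDA-MB-231 EVs against cells (-1.59, 3.18% of entries called lower). No filter ended hsa-miR-103a-3p in MDA-MB-231 (-1.68) and in UC against exoRNeasy EVs (1.30), and hsa-miR-107 in PC3 against MDA-MB-231 EVs (-1.86). Rescaling over mature names ended hsa-miR-103a-3p in MDA-MB-231 (-1.09). TMM ended it (-1.31) and hsa-miR-107 in PC3 against MDA-MB-231 EVs (-1.67). In UC against exoRNeasy EVs hsa-miR-107 passed with at least 100 TPM in 4 libraries (1.99, 9.62% of entries called higher) and TMM (2.72, 5.48%).

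edgeR and DESeq2 called hsa-miR-107 in MDA-MB-231 EVs against cells (-1.49 and -2.62) and in UC against exoRNeasy EVs (2.14 and 3.06). In the first of these edgeR called 6.36% of entries lower and DESeq2 21.2%, and in the second they called 4.06% and 25.8% higher. They also called next-gen ATPS against UC EVs for hsa-miR-103a-3p (-1.22 and -1.78) and hsa-miR-107 (-1.25 and -1.81). PC3 against MDA-MB-231 cells changed sign, without a call, with TMM (0.34 for hsa-miR-103a-3p and 0.30 for hsa-miR-107), edgeR (0.34 and 0.34) and DESeq2 (0.044 and 0.048). Without the 2 libraries under 10 reads of the pair, hsa-miR-107 was -1.60 in MDA-MB-231 EVs against cells and 0.97 in UC against exoRNeasy EVs.

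With each library left out, hsa-miR-107 ranged over -3.82 to -2.47 in PC3 EVs against cells, -1.90 to -1.60 in MDA-MB-231 EVs against cells, -2.54 to -1.18 in PC3 against MDA-MB-231 EVs, 0.97 to 3.01 in UC against exoRNeasy EVs and 0.12 to 2.16 in next-gen ATPS against exoRNeasy EVs. hsa-miR-103a-3p ranged over 1.07 to 1.53 in UC against exoRNeasy EVs.

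The miR-107 share, in percentage points, ranged over -0.47 to 0.15 for EVs minus cells, -0.10 to 1.18 for PC3 minus MDA-MB-231 and -2.36 to 0.20 for next-gen ATPS minus UC EVs, each turning sign without MDA-MB-231 next-gen ATPS EVs replicate 2. With a minimum of 1 read, which brings in the library with 2 and 0 reads, it was -5.93 for PC3 minus MDA-MB-231, 9.57 for next-gen ATPS minus exoRNeasy and 10.7 for UC minus exoRNeasy EVs. With reads summed over libraries, which also holds that library, it was -1.82, 1.93 and 2.35.

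Deviations of same-numbered libraries correlated at -0.14 to 0.10 over 28 pairs of groups. With low counts this cannot decide pairing. The replicate block changed no call of the pair, and hsa-miR-103a-3p in EVs against cells over both lines had an adjusted p of 0.000181 with it (limma).

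Over all settings, with each library left out among them, the number of entries called ranged from 36 to 117 for EVs against cells (67 with a pseudocount of 100), 15 to 82 in PC3 (52), 14 to 61 in MDA-MB-231 (35), 1 to 57 for PC3 minus MDA-MB-231 (7), 41 to 104 for PC3 against MDA-MB-231 EVs (65), 8 to 73 in cells (27), 0 to 30 for next-gen ATPS against UC (1), 10 to 58 against exoRNeasy (25) and 20 to 89 for UC against exoRNeasy EVs (47). Leaving out PC3 cells replicate 1 gave the 15, 8, 10 and 20. The 0 is limma at a pseudocount of 1 (50 at an unadjusted p under 0.05), where DESeq2 called 30. Rescaling over mature names gave 12 higher and 33 lower for EVs against cells (27 and 40 without it), 10 and 4 in MDA-MB-231 (18 and 17), 12 and 41 for PC3 against MDA-MB-231 EVs (22 and 43), 20 and 5 in cells (18 and 9), 2 and 2 for next-gen ATPS against UC (1 and 0), 6 and 8 against exoRNeasy (7 and 18) and 23 and 15 for UC against exoRNeasy EVs (16 and 31). It moved the median of all entries by -0.26 in PC3 EVs against cells, -0.38 for PC3 minus MDA-MB-231, -0.19 for next-gen ATPS against UC EVs, 0.19 between cells and 0.11 for UC against exoRNeasy EVs.

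Depth was lowest in MDA-MB-231 cells replicate 2, where the pair rested on 6 reads, and in PC3 exoRNeasy EVs it rested on 10 and 2. Each value is a share of a fixed total and groups hold 2 libraries. Binomial intervals cover counting error only, those of limma the spread between libraries.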

Other observations

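A further look at mature entries that share their first 18 bases was chosen after the values were seen. The share of hsa-let-7c-5p in the reads of hsa-let-7a-5p and hsa-let-7c-5p, members of the let-7 tumour suppressor family, was 16.7% to 32.4% in 5 libraries with at least 10 reads of the pair, on 138 reads of hsa-let-7a-5p and 42 of hsa-let-7c-5p. That of hsa-miR-378c in the reads of hsa-miR-378a-3p and hsa-miR-378c was 0% to 11.1% in 13 libraries, on 584 and 7 reads. The ratio of observed to binomial dispersion was 0.647 for the let-7 pair and 2.57 for the miR-378 pair, beside 0.0634 for hsa-miR-103a-3p and hsa-miR-107. These values are descriptions with no test.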
